A study of Mus musculus with 16 samples.

Results

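Semaphorins with their plexin and neuropilin receptors, and ephrins with their Eph receptors, were described on exon arrays of late embryonic mouse brain and spinal cord with and without the splicing factors Nova1 and Nova2. The members were all genes with a probe set that carries exactly 1 gene symbol, where that symbol is of the semaphorin (Sema), plexin (Plxn), neuropilin (Nrp), Eph receptor (Eph) or ephrin (Efn) families. This gave 53 of 21634 genes, and 1411 of the 303629 probe sets with 1 symbol. They comprised 7 class 3 semaphorins, 13 semaphorins of classes 4 to 7, 11 plexins and neuropilins, 9 EphA receptors, 5 EphB receptors and 8 ephrins.

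The 4 groups, each of 4 arrays, were Nova1/2 double knockout (dKO) whole brain, wild type (WT) whole brain, dKO spinal cord and WT spinal cord. All embryos were of the outbred CD1 strain at age E18.5, late in gestation, and each array was hybridised with total RNA of 1 biological replicate. Nova1 and Nova2 are neuronal RNA-binding proteins that control which exons neurons include, and the comparisons ask which genes and exons change when both are lost. The sources used here name neither the alleles nor whether a brain and a cord of the same number came from the same embryo.

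Semaphorins are secreted or membrane-bound cues that steer growing axons and migrating neurons through plexins, with neuropilins as co-receptors for most of the secreted class 3. Ephrins are membrane-bound ligands of Eph receptor tyrosine kinases and signal where cells touch, as in topographic maps and at tissue borders. Both systems act in the cortex, in commissural and motor axons of the cord, and in blood vessels.

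Each gene's level was the median of log2(intensity + 16) over those of its probe sets whose mean lay above the table's median, 6.73 (the floor), and had to rest on 3 or more of them. Subtracting this level from a probe set's own log2 value, array by array, gave the exon index, computed where a gene kept 5 or more probe sets. A gene or probe set was called where limma's moderated two-sided test gave an adjusted p under 0.05 over the whole table, and changes are on the log2 scale, dKO minus WT or cord minus brain. Of the members, 52 had a gene level, and no group mean of these lay below the floor. Nrp2, a neuropilin, did not, because only 1 of its probe sets carries its symbol alone. That probe set averaged 6.51 over all arrays, and 28 others share their symbol with the neighbouring Pard3b.

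The change of Nova1 was -5.03 in brain and -5.31 in cord, and that of Nova2 was -0.75 in brain and -1.14 in cord. The tissue labels held: 16 of 18 Hox genes were higher in WT cord than in WT brain and 8 of 8 telencephalon genes were lower. Brain array 3 of each genotype stood apart. Its mean level over the telencephalon genes was 8.29 in dKO brain 3 and 7.60 in WT brain 3, against 9.76 to 10.01 on the other brain arrays. Some members were low there too: Epha3 stood at 8.69 on dKO brain 3 and 8.27 on WT brain 3, and Sema3c at 7.98 on WT brain 3. Others were high on WT brain 3: Plxna1 stood at 10.86, against 10.40 to 10.57 on the other WT brain arrays. Sema6a stood at 10.03 on it, against 9.46 to 9.49. In cord, the mean level over 14 skeletal muscle genes was 8.77 to 9.85 on dKO 2, dKO 4, WT 1 and WT 4, and 7.40 to 7.63 on the other cord arrays. In these tissue extracts, fewer cells of a type and less RNA per cell cannot be told apart.

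The promoters of 4 members on which the results turn are shown from 250 bases before to 50 bases after the annotated start, 5′ to 3′ on the strand of the gene, from RefSeq on GRCm38.p6. Sema7a and Sema6b are the members that fell in dKO cord, and Epha7 and Epha5 were much lower in WT cord than in WT brain. Capitals mark the GC box, searched as GGGCGG on both strands.
Sema7a: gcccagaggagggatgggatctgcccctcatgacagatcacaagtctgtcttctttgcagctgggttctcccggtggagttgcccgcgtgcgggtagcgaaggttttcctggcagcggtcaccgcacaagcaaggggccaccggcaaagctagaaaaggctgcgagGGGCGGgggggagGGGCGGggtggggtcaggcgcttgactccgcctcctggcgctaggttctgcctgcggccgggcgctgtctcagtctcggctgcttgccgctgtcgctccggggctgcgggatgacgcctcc
Sema6b: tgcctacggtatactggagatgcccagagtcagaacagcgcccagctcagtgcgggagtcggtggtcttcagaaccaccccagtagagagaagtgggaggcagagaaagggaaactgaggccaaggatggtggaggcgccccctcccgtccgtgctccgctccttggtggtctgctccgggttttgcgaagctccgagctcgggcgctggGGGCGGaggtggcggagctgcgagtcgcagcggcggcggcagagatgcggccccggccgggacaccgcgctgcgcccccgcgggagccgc
Epha7: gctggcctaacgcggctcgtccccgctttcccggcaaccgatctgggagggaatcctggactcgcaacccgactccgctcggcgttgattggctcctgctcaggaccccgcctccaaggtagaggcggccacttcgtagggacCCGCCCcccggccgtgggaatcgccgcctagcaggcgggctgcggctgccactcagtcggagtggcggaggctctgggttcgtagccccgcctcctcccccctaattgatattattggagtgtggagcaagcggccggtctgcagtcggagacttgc
Epha5: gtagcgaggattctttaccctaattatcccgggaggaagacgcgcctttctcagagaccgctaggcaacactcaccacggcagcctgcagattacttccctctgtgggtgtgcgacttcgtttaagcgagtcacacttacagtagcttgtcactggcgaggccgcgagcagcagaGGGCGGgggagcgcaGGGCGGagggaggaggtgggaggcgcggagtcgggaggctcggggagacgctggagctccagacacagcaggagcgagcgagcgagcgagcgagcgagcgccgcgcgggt
The Sema7a window lies at chr9:57939862-57940161 on the + strand, that of Sema6b at chr17:56140294-56140593 on the - strand, that of Epha7 at chr4:28812881-28813180 on the + strand and that of Epha5 at chr5:84417333-84417632 on the - strand. Sema6b and Epha7 have 2 annotated starts each, and the most upstream is shown. The Sema7a and Epha5 windows hold 2 GC boxes each, and those of Sema6b and Epha7 hold 1 each. At least 1 GC box on either strand was found in 36 of 47 members with a promoter in the RefSeq table (76.6%). Of the 27025 most upstream promoters there, 1 per gene, 9708 held it (35.9%). Those genes were not matched to the members in kind, so the shares do not compare like with like. None of the 4 windows holds the TATA box, searched as TATAAA on both strands, which 1 of 47 members and 14.2% of the 27025 hold. A match of letters describes the window and is not a bound site.

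The first comparison asked which guidance genes change in cord when both Nova genes are lost. In dKO cord 2 of 52 members were called and both fell: Sema7a, a membrane-anchored semaphorin that promotes axon growth through integrins and also binds Plxnc1, and Sema6b, a transmembrane semaphorin that signals through class A plexins. No member rose past the threshold. This is 3.85% of the members, against 5.63% of all 14570 genes called in that comparison, 4.55% of them lower.

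**Figure D1:**
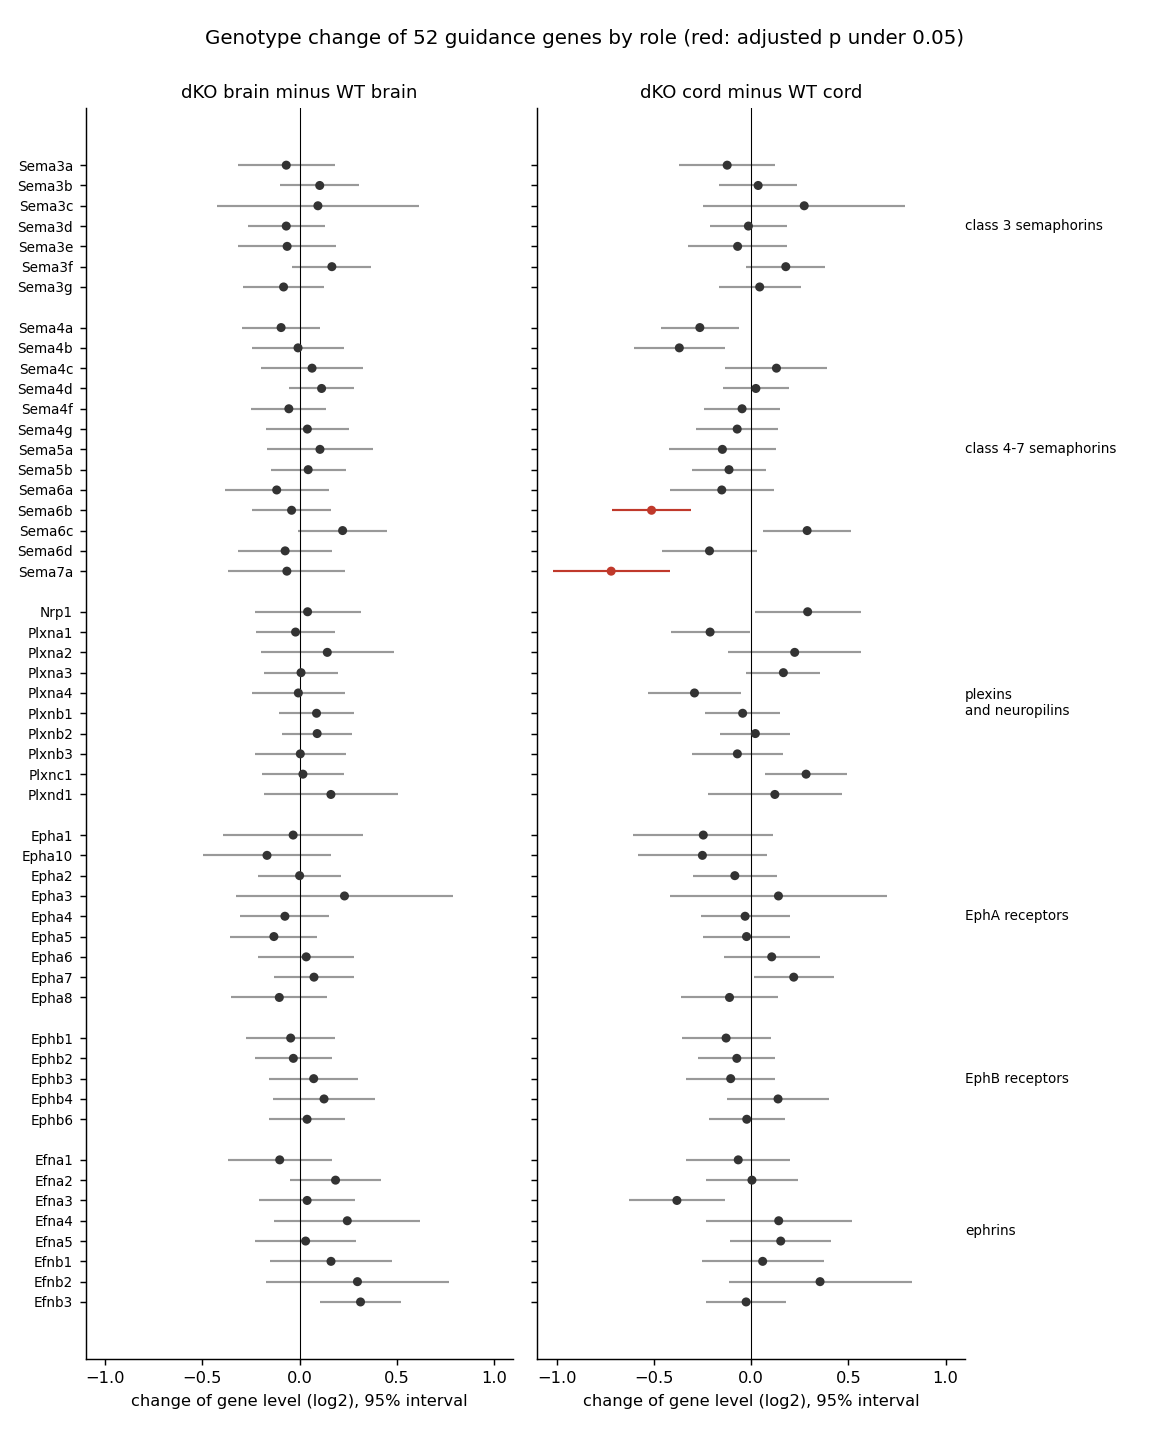
Change of the gene level on the log2 scale with its 95% interval for the 52 measured members, dKO brain minus WT brain on the left and dKO cord minus WT cord on the right, ordered by role. Red marks an adjusted p under 0.05: Sema7a (-0.72) and Sema6b (-0.51) in cord, and no member in brain.

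Sema7a stood at 9.02, 8.82, 8.80 and 8.55 in dKO cord 1 to 4, against 9.72, 9.64, 9.52 and 9.18 in WT cord 1 to 4. All dKO arrays lay below all WT arrays. The change was -0.72 (SE 0.144, adjusted p = 0.00515), a level 0.607 times that of WT cord, and all 14 of its probe sets above the floor were lower. Sema6b stood at 9.07, 8.83, 8.84 and 8.84 in dKO cord, against 9.52, 9.39, 9.55 and 9.17 in WT cord. Here too the groups did not overlap, though dKO 1 and WT 4 came within 0.10 of each other. Its change was -0.51 (SE 0.0968, adjusted p = 0.00343), and 16 of 17 probe sets were lower. With means over probe sets in place of medians the change of Sema6b was smaller, at -0.33 (adjusted p = 0.0152). That of Sema7a was then -0.59 (adjusted p = 0.00452). Both calls held in 8 of 8 fits without 1 cord array, with adjusted p up to 0.0289 for Sema7a and 0.0169 for Sema6b.

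In brain the same genes showed no call. Sema7a stood at 9.85, 9.73, 9.31 and 9.63 in dKO brain, against 9.82, 9.74, 9.36 and 9.87 in WT brain, and the 2 arrays of number 3 were the lowest of their groups. Its brain change was -0.07 (SE 0.144, adjusted p = 1), and that of Sema6b was -0.04 (adjusted p = 1). The cord change minus the brain change was -0.65 for Sema7a (adjusted p = 0.368) and -0.47 for Sema6b (adjusted p = 0.318). A difference between the tissues was therefore not called for either gene. The same test called 0 of 14570 genes (0%), and 5 members had an unadjusted p under 0.05 (9.62%, against 8% of all genes), all with a cord change below the brain change.

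Without the 4 cord arrays high in muscle genes, 2 arrays a group remained and no member was called. The change of Sema7a was then -0.68 (adjusted p = 0.125) and that of Sema6b -0.52 (adjusted p = 0.0759), and 100 genes were called in all. Lists of glial markers moved in the same direction, where 4.55% of all genes were called lower. Of 9 astrocyte and radial glia genes 5 fell in dKO cord, with a mean level of 9.54 to 9.79 over the dKO cord arrays and 9.84 to 10.23 over the WT cord arrays. Of 8 oligodendrocyte lineage genes 3 fell, with a mean level of 8.23 to 8.35 in dKO cord and 8.49 to 8.80 in WT cord. Of 11 microglia and macrophage genes 4 fell, with a mean level of 7.51 to 7.74 in dKO cord and 7.83 to 8.20 in WT cord. Other lists moved both ways. The mean level over 3 erythroid genes was 7.64 to 7.83 in dKO cord and 8.06 to 8.24 in WT cord, with 1 of them called lower. Of 9 fibroblast and meninges genes 1 rose, and their median change was 0.37. The part of all these lists in the falls of Sema7a and Sema6b was not tested. The muscle score of dKO cord spanned 7.40 to 9.35 and that of WT cord 7.60 to 9.85.

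Among the other semaphorins of classes 4 to 7, none was called in dKO cord. Of these 11 genes 8 had a negative change (72.7%, against 56% of all genes), and their median was -0.11, against -0.03 over all genes. Sema4b, a transmembrane semaphorin, stood at 8.85, 8.74, 8.45 and 8.62 in dKO cord and at 9.10, 9.04, 9.27 and 8.72 in WT cord. The groups overlapped by WT cord 4, and the change was -0.37 (SE 0.112, adjusted p = 0.0591). Sema4a, a ligand of immune and neural cells, had a change of -0.26 (adjusted p = 0.121). Sema6c, a relative of Sema6b, pointed the other way: 8.34, 8.27, 8.36 and 8.22 in dKO cord, against 8.11, 8.0, 8.15 and 7.78 in WT cord. Those groups did not overlap, and the change of 0.29 had an adjusted p of 0.138. The 7 secreted class 3 genes ranged from -0.12 (Sema3a) to 0.27 (Sema3c), with none called. These genes and those named in the next paragraphs beside Efnb2 and Nrp1 were picked with their values known.

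The receptors of these ligands were not called in cord, and they moved in both directions. Plxnc1, the plexin that binds Sema7a, stood at 9.47, 9.48, 9.41 and 9.31 in dKO cord, against 9.38, 9.07, 9.03 and 9.07 in WT cord. WT cord 1 overlapped the dKO arrays, and the change was 0.28 (SE 0.1, adjusted p = 0.111). Plxna4, a receptor for class 6 semaphorins and with neuropilins for class 3, stood at 9.20, 9.24, 9.18 and 9.10 in dKO cord, against 9.73, 9.31, 9.51 and 9.33 in WT cord. The groups did not overlap and 38 of 42 probe sets were lower, but the change of -0.29 had an adjusted p of 0.154. Plxna2, another receptor for class 6 semaphorins, had a change of 0.22 (adjusted p = 0.501), with 44 of 45 probe sets higher.

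**Figure D2:**
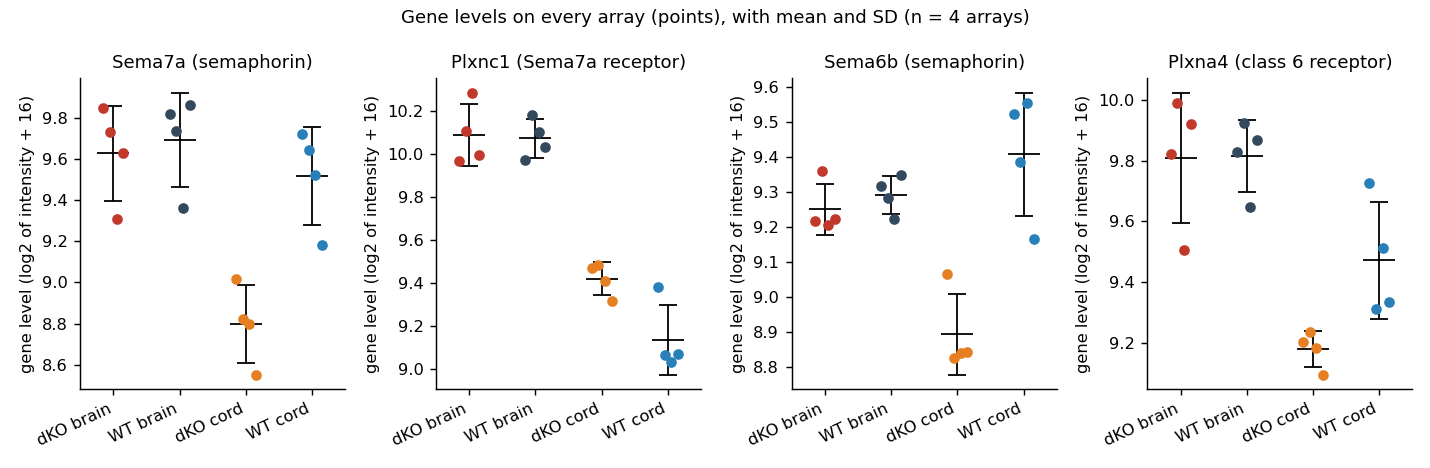
Gene level, log2(intensity + 16), of Sema7a, Plxnc1, Sema6b and Plxna4 on each of the 16 arrays (points), with the mean and SD of each group (bars, n = 4). In cord the dKO points lie below the WT points for Sema7a, Sema6b and Plxna4, and for Plxnc1 WT cord 1 (9.38) falls among the dKO points.

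Nrp1, the co-receptor of class 3 semaphorins and of VEGF, had the second largest positive change in cord after Efnb2. Its level was 9.80, 9.94, 9.76 and 9.80 in dKO cord, against 9.74, 9.44, 9.61 and 9.36 in WT cord. The groups did not overlap, by a margin of 0.02 between dKO 3 and WT 1. The change was 0.29 (SE 0.13, adjusted p = 0.22), and 28 of 30 probe sets were higher. In all, 8 members had groups that did not overlap in cord (11.5% of all genes did). Higher were Efnb2, Nrp1, Plxna3 and Sema6c, beside 3.9% of all genes, and lower were Sema6b, Sema7a, Plxna1 and Plxna4, beside 7.62% of all genes. An unadjusted p under 0.05 was reached by 11 members, 21.2%, against 19.5% of all genes.

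Ephrins and Eph receptors gave no call in dKO cord. Efnb2, a transmembrane ephrin of arteries and motor circuits, stood at 8.99, 8.93, 8.85 and 9.12 in dKO cord, against 8.82, 8.73, 8.50 and 8.43 in WT cord. The groups did not overlap, and all 13 probe sets were higher, but the change of 0.35 (SE 0.225) had an adjusted p of 0.42. With only the cord arrays in the fit it was not called either (adjusted p = 0.11). Efna3, a GPI-anchored ephrin, was the lowest ephrin at -0.38 (adjusted p = 0.0641), with all 6 probe sets lower. Among the 9 EphA receptors the changes ran from -0.25 (Epha10) to 0.22 (Epha7, adjusted p = 0.223), and among the 5 EphB receptors from -0.13 (Ephb1) to 0.14 (Ephb4).

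Other ways of scaling the arrays brought further members past the threshold in cord. With each array centred on its median 5 members were called, all lower: Sema7a, Sema6b, Sema4a (-0.31), Sema4b (-0.42) and Efna3 (-0.43). With quantile normalization 7 were called, the same 5 lower and Sema6c (0.33) and Plxnc1 (0.34) higher. Leaving out dKO cord 1 or WT cord 4 gave 4 calls, with Sema4b and Efna3 added, and leaving out WT cord 1 gave 3, with Plxnc1 added at 0.36 (adjusted p = 0.0361).

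In dKO brain no guidance gene was called on the gene level. The same test called 0.268% of all genes there, and 1 member (1.92%) had an unadjusted p under 0.05, against 5.33% of all genes. Changes of the 52 members ran from -0.17 (Epha10) to 0.31 (Efnb3), and the half-width of their 95% intervals ran from 0.17 to 0.56. The member median was 0.03, against 0.02 over all genes.

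Efnb3, a transmembrane ephrin of the midline that keeps corticospinal axons from recrossing, had the largest positive change in brain. It stood at 9.58, 9.43, 9.76 and 9.50 in dKO brain, against 9.25, 9.27, 9.39 and 9.12 in WT brain. The groups did not overlap, and all 11 probe sets were higher, 3 of them without overlap. The change was 0.31 (SE 0.0994, unadjusted p = 0.00516 by limma), and after adjustment over all genes it was not called (adjusted p = 0.43). In cord its change was -0.03. Read from Xist and Y-linked genes, the dKO brains were 4 females and the WT brains 2 females and 2 males, and with a sex term the change was 0.24.

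Efnb2 was next at 0.30 (SE 0.225, adjusted p = 1). It stood at 10.02, 10.02, 9.49 and 9.93 in dKO brain, against 9.79, 9.96, 8.55 and 9.98 in WT brain. WT brain 3 lay far below the other arrays, and without it the change was -0.04. Of the 8 ephrins 7 had a positive change in brain (87.5%, against 57.6% of all genes), with a median of 0.17. Without WT brain 3, 5 of 8 were positive (62.5%, against 48% of all genes), with a median of 0.02. Besides Efnb3, Sema3f was the other member whose brain groups did not overlap, at 8.75, 8.82, 8.87 and 8.93 in dKO brain, against 8.56, 8.73, 8.70 and 8.72 in WT brain (change 0.17, adjusted p = 1). Groups without overlap were found for 4% of all genes, 2.17% of them higher.

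The most negative brain changes were those of 2 EphA receptors. Epha10, an EphA receptor without kinase activity, stood at 7.85, 7.79, 8.35 and 8.03 in dKO brain, against 7.97, 7.96, 8.71 and 8.06 in WT brain. Both arrays of number 3 were high, and the change of -0.17 (adjusted p = 1) became 0.01 without WT brain 3. Epha5, a receptor of topographic mapping, stood at 10.02, 10.07, 9.79 and 10.02 in dKO brain, against 10.18, 10.20, 9.84 and 10.21 in WT brain. The groups overlapped through WT brain 3, and the change was -0.13 (SE 0.107, adjusted p = 1). The receptors of the semaphorins were flat in their estimates: the 9 plexins and Nrp1 ran from -0.02 (Plxna1) to 0.16 (Plxnd1), and none was called.

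The exon index asked whether single probe sets changed relative to their gene, as a spliced exon would, although other transcript starts or ends can change it too. It was measured for 1182 probe sets of 51 members, Efna1 having too few. In dKO brain 2 were called, in Epha5 and Sema4d, which is 0.169% of the members' probe sets against 0.15% of all 193126. Positions of the probe sets in their genes were not used here, so each is given by its identifier.

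Probe set 4312205 of Epha5 fell relative to its gene in dKO brain. Its index was -0.72, -0.83, -0.54 and -0.70 in dKO brain, against 0.22, -0.16, 0.61 and 0.11 in WT brain. All dKO arrays lay below all WT arrays, and the change was -0.89 (SE 0.148, adjusted p = 0.0162). The log2 value of the probe set itself was 9.28 in dKO brain and 10.30 in WT brain, well above the floor. The other 29 Epha5 probe sets were not called, and their changes lay at -0.22 or above. In cord the index of 4312205 was -0.01, 0.23, 0.15 and -0.02 in dKO arrays and 0.07, 0.50, 0.03 and 0.45 in WT arrays, a change of -0.17 (adjusted p = 0.694). The cord change minus the brain change was 0.72 (adjusted p = 0.773), so the tissues were not shown to differ. Brain arrays of the same number deviated together, and with the replicate number as a block the adjusted p was 0.0536. The call also ended without dKO brain 1 (adjusted p = 0.0645), dKO brain 2 (0.0805), dKO brain 4 (0.0582) or WT brain 1 (0.0663), while the change stayed between -1.01 and -0.75 in the 8 such fits.

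Probe set 4992793 of Sema4d, a transmembrane semaphorin that signals through Plxnb1, rose relative to its gene. Its index was 1.19, 1.27, 1.14 and 1.31 in dKO brain, against 0.21, 0.87, -0.25 and 0.40 in WT brain. The dKO arrays were close together and all above the WT arrays, which spread widely. The change was 0.92 (SE 0.169, adjusted p = 0.0386). In cord the index was 0.38, 0.44, 0.31 and 0.28 in dKO arrays, against -0.12, -0.13, -0.05 and -0.47 in WT arrays, again without overlap. That change of 0.54 was not called (adjusted p = 0.206). A second Sema4d probe set, 5516520, picked for its size, changed by 0.84 in brain and 0.88 in cord with a wider SE of 0.289, and was called in neither (adjusted p = 1 and 0.235). For 4992793 in brain, the same block shared by both tissues gave an adjusted p of 0.0562. The call held in 1 of 8 fits without 1 brain array, that without WT brain 2 (1.11, adjusted p = 0.0015), and in the other fits adjusted p ran from 0.0616 without WT brain 3 to 0.154 without WT brain 1.

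**Figure D3:**
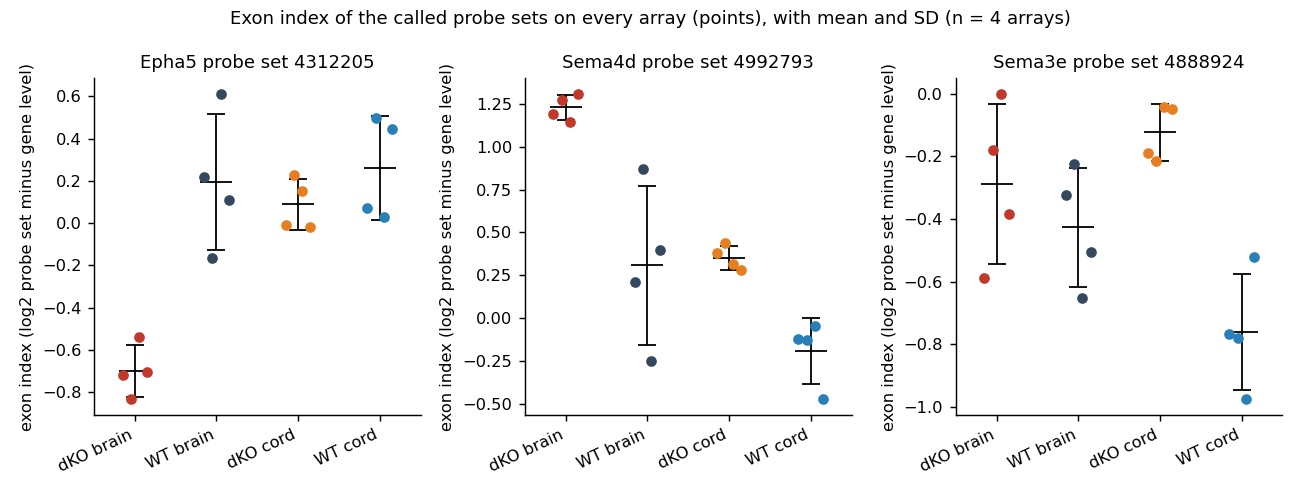
Exon index, the log2 value of a probe set minus the level of its gene, on each of the 16 arrays (points) with the mean and SD of each group (bars, n = 4). The Epha5 probe set is low in dKO brain alone (mean -0.70), the Sema4d probe set is higher in dKO than in WT in both tissues, and the Sema3e probe set is lowest in WT cord (mean -0.76).

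In dKO cord 1 probe set was called, which is 0.0846% of the members' probe sets against 0.388% of all. Probe set 4888924 of Sema3e, a secreted semaphorin that binds Plxnd1 directly, had an index of -0.19, -0.21, -0.04 and -0.05 in dKO cord, against -0.77, -0.78, -0.98 and -0.52 in WT cord. The groups did not overlap, and the change was 0.64 (SE 0.132, adjusted p = 0.0481). This probe set was dim, at 7.19 in dKO cord and at 6.62, below the floor, in WT cord. In brain its change was 0.14 (adjusted p = 1). Among the 8 fits without 1 cord array, the call held only without WT cord 4 (0.72, adjusted p = 0.033). In the other 7 such fits adjusted p ran from 0.0771 to 0.151. Without the 4 cord arrays high in muscle genes its change was 0.76 and the adjusted p 0.236. In Sema6b, whose gene level fell, 6 of 17 probe sets had an index without overlap between the cord groups (5.69% of all probe sets did). None was called. The index subtracts the gene level, whose own cord groups did not overlap. A probe set that fell less than its gene can therefore gain such an index without any splicing difference. The index changes of the 17 ran from -0.08 to 0.55, and the fall of the gene level was smaller with means over probe sets.

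**Figure D4:**
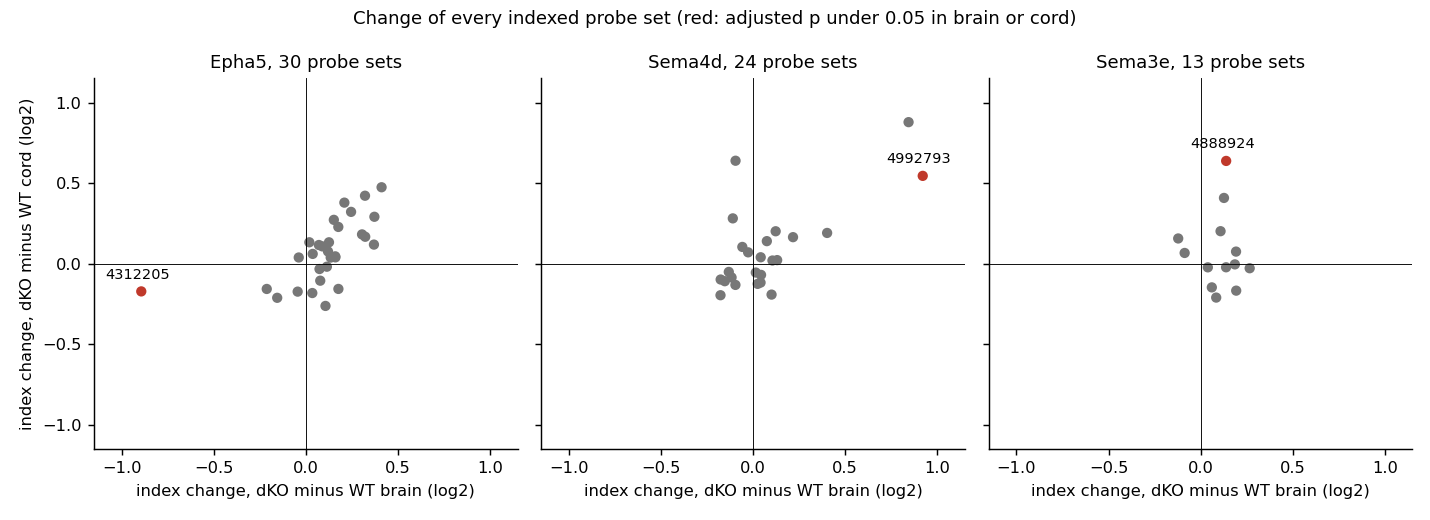
Change of the exon index of every indexed probe set of Epha5, Sema4d and Sema3e, dKO minus WT in brain (horizontal) and in cord (vertical), on the log2 scale. Epha5 probe set 4312205 stands apart on the brain axis (-0.89 in brain, -0.17 in cord), and Sema4d probe set 4992793 is displaced on both axes (0.92 in brain, 0.54 in cord).

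The last comparison set WT cord against WT brain, and the guidance genes differed in large part. Of 52 members 31 were called, 8 higher and 23 lower in WT cord. This is 59.6% of the members, against 60.4% of all genes (20.6% higher and 39.8% lower), and the member median of -0.16 equalled that of all genes to 2 decimals. The split depends on how the arrays are scaled: with each array centred on its median, 0 members were higher and 40 lower, and the median of all genes moved to -0.53. Of all genes called, 34.1% were higher as deposited and 7.02% after centring. The values that follow are as deposited, with calls against 0, and are to be read beside the all-gene median of -0.16.

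EphA receptors had the most negative changes. Epha3, a receptor of retinal and thalamic maps, stood at 8.29, 7.62, 7.95 and 8.02 in WT cord, against 9.52, 9.71, 8.27 and 9.53 in WT brain. WT brain 3 overlapped the cord arrays, and the change was -1.29 (SE 0.266, adjusted p = 0.000506). Epha7, which helps to pattern cortical projections, stood at 8.67, 8.43, 8.27 and 8.47 in WT cord, against 9.50, 9.76, 9.62 and 9.74 in WT brain. Those groups lay far apart, WT brain 3 included, and the change was -1.19 (SE 0.0987, adjusted p = 6.51e-08). Epha5 stood at 9.27, 8.90, 8.95 and 9.06 in WT cord, against 10.18, 10.20, 9.84 and 10.21 in WT brain, with no overlap and a change of -1.06 (adjusted p = 7.09e-07). Of the 9 EphA receptors 4 were called lower and 1, Epha10, higher (55.6% called, against 60.4% of all genes).

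Efnb2 was the ephrin with the most negative change, at 8.82, 8.73, 8.50 and 8.43 in WT cord, against 9.79, 9.96, 8.55 and 9.98 in WT brain. WT brain 3 lay among the cord arrays, and the change was -0.95 (SE 0.225, adjusted p = 0.00153), or -1.29 without both brain arrays of number 3. Of the 8 ephrins 5 were called, all lower (62.5%). Of the 5 EphB receptors 2 were called lower and Ephb3 higher (60%). Both shares were near the 60.4% of all genes called.

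Plexins were largely lower in WT cord: of the 10 tested, Nrp1 included, 8 were called lower and 1 higher. This is 90% called, against 60.4% of all genes, 39.8% of them lower. Those with adjusted p nearest the threshold were Nrp1 (-0.31, adjusted p = 0.0482) and Plxnb1 (-0.22, adjusted p = 0.0478), not far from the all-gene median of -0.16. Plxnc1 stood at 9.38, 9.07, 9.03 and 9.07 in WT cord, against 9.97, 10.18, 10.10 and 10.03 in WT brain, without overlap. Its change was -0.93 (SE 0.1, adjusted p = 1.28e-06). Plxnb3, a plexin of oligodendrocytes and a receptor of Sema5a, was the exception, at 7.97, 7.91, 7.63 and 7.86 in WT cord, against 7.42, 7.29, 7.64 and 7.06 in WT brain. WT cord 3 and WT brain 3 nearly coincided, and the change was 0.49 (adjusted p = 0.00121).

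Sema5a, a transmembrane semaphorin and ligand of Plxnb3, had the largest positive change, at 9.29, 8.67, 8.87 and 9.09 in WT cord, against 8.35, 8.34, 8.72 and 8.23 in WT brain. WT brain 3 lay above WT cord 2, and the change was 0.57 (SE 0.131, adjusted p = 0.00122). Sema3g, a secreted semaphorin of vessels, stood at 7.77, 7.94, 7.88 and 7.64 in WT cord, against 7.33, 7.12, 7.36 and 7.29 in WT brain, without overlap (0.53, adjusted p = 0.000229). Sema6d, a ligand of Plxna1, stood at 9.997, 9.62, 9.64 and 9.84 in WT cord, against 9.13, 9.19, 9.64 and 9.26 in WT brain, where WT brain 3 reached the cord range (0.47, adjusted p = 0.00205). Epha10 stood at 8.78, 8.40, 8.69 and 8.62 in WT cord, against 7.97, 7.96, 8.71 and 8.06 in WT brain, with WT brain 3 inside the cord range (0.45, adjusted p = 0.0202). Its call ended without WT brain 1 (0.38, adjusted p = 0.0674), WT brain 2 (0.38, 0.07), WT brain 4 (0.41, 0.0531) or WT cord 1 (0.40, 0.0554). With each array centred on its median none of these 5 differences was called, and they ran from 0.07 (Epha10) to 0.20 (Sema5a). Calls also ended for Sema3g without a floor (0.21, adjusted p = 0.0999), for Plxnb3 with quantile normalization (0.25, adjusted p = 0.0644) and for Epha10 once the floor was raised to the 75th percentile (0.19, adjusted p = 0.122). Without the 4 cord arrays high in muscle genes, Sema6d (0.32, adjusted p = 0.0632) and Epha10 (0.37, adjusted p = 0.147) lost their calls.

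**Figure D5:**
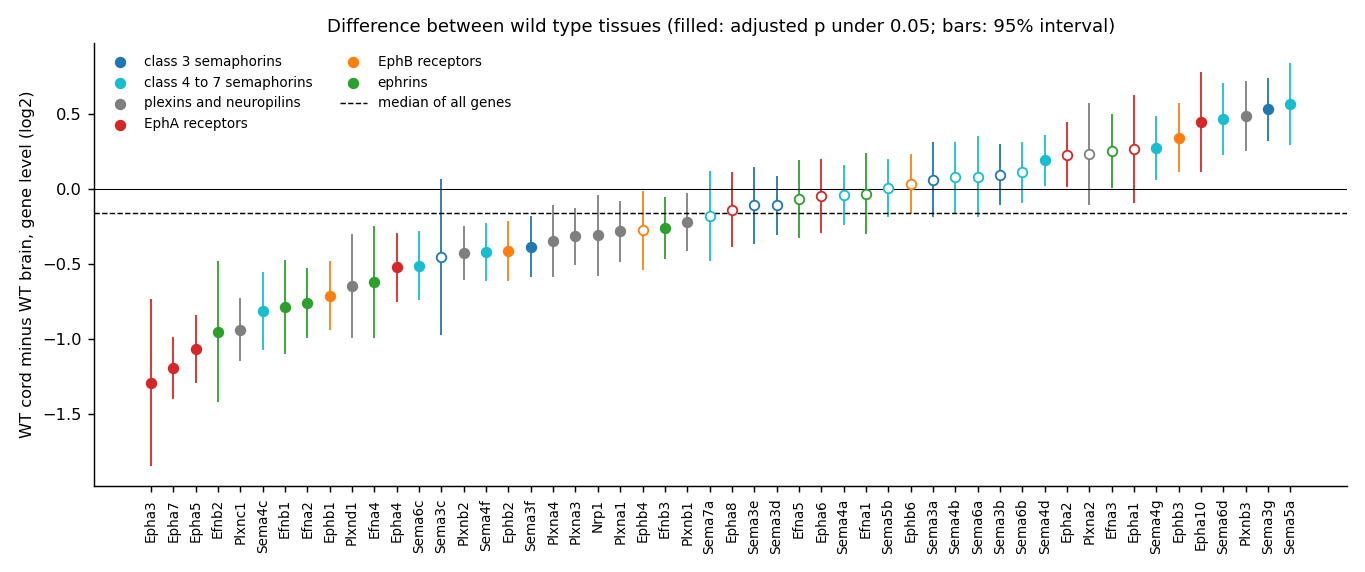
WT cord minus WT brain, change of the gene level on the log2 scale with its 95% interval, for the 52 measured members in order of size and coloured by role. Filled points have an adjusted p under 0.05 (31 members). The dashed line is the median of all genes (-0.16), and Epha3, Epha7, Epha5, Efnb2 and Plxnc1 lie lowest.

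Relative to their genes, 292 of 1182 probe sets of members differed between WT cord and WT brain (24.7%, against 22% of all), 156 higher and 136 lower (12.4% and 9.59% of all). They lay in 49 of the 51 members, all but Efna2 and Efna3. In Plxnc1 14 of 15 called probe sets were higher in WT cord, and in Sema6b 9 of 9 were lower. A probe set near the floor in a tissue where its gene is high can give such an index without any splicing difference. Plxnc1 probe set 5401904 had an index of -2.21, -1.51, -2.19 and -1.65 in WT cord, against -3.27, -3.45, -3.34 and -3.40 in WT brain, far apart, yet its own log2 value was only 7.25 in WT cord and 6.70 in WT brain. Its change of 1.48 (SE 0.135, adjusted p = 1.2e-05) came with the gene's fall of 0.93.

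Epha5 probe set 4409467 was bright in both tissues. Its index was 1.07, 1.30, 1.39 and 1.38 in WT cord, against 0.28, 0.14, 0.27 and 0.15 in WT brain, without overlap (change 1.08, adjusted p = 8.6e-06). Its own log2 value was 10.33 in WT cord and 10.32 in WT brain, while the level of its gene was 1.06 lower in cord. Nrp1 probe set 4340007 averaged -1.73 in WT cord and -2.97 in WT brain (1.24, adjusted p = 5.57e-05). Sema3f probe set 4847364 averaged -0.29 in WT cord and -1.67 in WT brain (1.38, adjusted p = 6.43e-05). The Nrp1 and Sema3f probe sets were dim in WT brain, with own log2 values of 6.88 and 7.0, near the floor of 6.73. The limit given above for probe sets near the floor applies to both. Efnb1 probe set 4764421 averaged -0.02 in WT cord, where it was the median probe set of its gene on 3 arrays, and -1.01 in WT brain (0.99, adjusted p = 9.61e-06). None of these 5 probe sets differed between dKO and WT in either tissue by adjusted p.

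Genes that act below these receptors were read from a list of 66, of which 64 had a level. In dKO brain none was called. In dKO cord 1 rose and 3 fell (6.25%, against 5.63% of all genes), or 1 and 6 with each array centred on its median, and the list median was -0.01, against -0.03 over all genes. Limk1, the kinase that phosphorylates cofilin, stood at 9.57, 9.30, 9.34 and 9.32 in dKO cord, against 10.30, 10.12, 10.01 and 9.68 in WT cord. The groups did not overlap, and the change was -0.64 (adjusted p = 0.00278). In WT cord against WT brain 7 genes of the list were higher (10.9%, against 20.6% of all genes) and 37 lower (57.8%, against 39.8%), and with each array centred on its median 0 were higher and 54 lower.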

How the data were processed

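The 16 arrays were grouped by tissue and genotype from their titles. The authors deposited linear intensity per probe set, for which PLIER, Affymetrix Power Tools and build mm8 were used, per the submitters' processing notes. Their versions, and how PLIER was set, are not given in the sources here, and no column was left unused (0). Symbols came from the platform annotation, and promoters from RefSeq (GRCm38.p6).

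Values were taken as log2(intensity + 16), which understates changes of dim probe sets, and were not rescaled. A model of 4 group means, shared by all arrays, was fitted with limma 3.58.1 (lmFit, eBayes) in R 4.3.3, with the package data.table (version 1.17.8) and Benjamini-Hochberg adjustment over all 14570 genes or 193126 probe sets of a comparison. The 4 arrays a group limit the precision. Scripts were tested on simulated data.

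Members and lists were chosen with earlier results of these data known. By rule the text names called members, the 2 largest rises and falls where fewer than 4 were called, and for the tissues the 5 largest called each way and 5 probe sets by adjusted p. Others were picked with their values known. The other called genes of the list that acts below the receptors are not reported here.

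Deviations from group means of same-numbered arrays correlated at 0.212 to 0.407 between the brain genotypes and at -0.12 to -0.003 between the cord genotypes. Correlations of arrays with unlike numbers are not given here for comparison. Whether the numbers pair the arrays of a tissue was therefore not tested. Alternatives were other pseudocounts, floors, summaries and scalings, fits without arrays, a replicate block and a sex term. The block gave brain and cord arrays of a number the same term, so it does not model pairs within a tissue. Between cord and brain, deviations of same-numbered arrays correlated at -0.152 to -0.041 in WT and at -0.021 to 0.044 in dKO.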

Additional observations from a re-analysis of the deposited data

Results flagged for a closer look

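In 13 of 88 sets of 4 values tested for the named genes and probe sets, 1 array lay apart from the other 3 by most of the range of its group. Chance gives such a gap in about 1 of 20 sets. That share does not apply to the Efnb1 index in WT cord, where 3 values were 0 by definition.

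Array 3 accounts for most gaps in brain. Epha3, the EphA receptor, was low on dKO brain 3 (8.69, the next being 9.69) and on WT brain 3 (8.27, the next being 9.52). On WT brain 3 Efnb2 (8.55) and Epha5 (9.84) were low and Epha10 (8.71) was high, and Nrp1 was low on dKO brain 3 (9.56). The mean level of the telencephalon genes was low on the same arrays, and its part in these gaps was not tested.

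Elsewhere Sema6b was high on dKO brain 2 (9.36) and on dKO cord 1 (9.07, the other dKO cord arrays being at 8.83 to 8.84). Plxnc1 was high on WT cord 1 (9.38). On the exon index, Efnb1 probe set 4764421 was high on dKO brain 2 (-0.83) and low on WT cord 4 (-0.066, the other 3 being at 0). The probe set was its gene's median on those 3 arrays, so any other value on WT cord 4 would have been flagged. Nrp1 probe set 4340007 was high on dKO cord 3 (-1.42) and low on WT cord 2 (-2.12).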

How the results depend on the processing

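Calls in dKO brain on the gene level (0) and the tissue count (31, from 25 to 40) moved by less than 1.5 times under every alternative run. In cord the gene-level count of 2 became 4 with the floor at the 75th percentile, 4 with means over probe sets, 7 with quantile normalization, 5 with each array centred on its median and 0 without the 4 cord arrays high in muscle genes, and 2 to 4 without 1 array. The brain exon count of 2 became 1 with quantile normalization or a sex term and 0 with only the arrays of the comparison or without both brain arrays of number 3, and 0 to 2 without 1 array. With the replicate block it was 0, which ended the pair of brain exon calls, and the block ended the Sema3e call in cord (adjusted p = 0.0877), although Sema6b probe set 5115607 was called there in its place. The block ended no call of a gene level named in brain or cord. The cord exon count of 1 became 6 with quantile normalization and 0 without a floor, with means over probe sets, with only the arrays of the comparison, with a sex term or without the muscle-rich arrays, and 0 to 3 without 1 array. It stayed at 1 with pseudocount 64, but through Sema6b 5115607, and with the floor at the 75th percentile, but through Sema4g 4454971. Sema3e 4888924 kept its call in 3 of 17 alternatives. The limit given above for the Sema6b index applies to 5115607. The tissue exon count of 292 became 178 with only the arrays of the comparison. Without WT brain 3 the brain changes of Efnb2 (-0.043) and Epha10 (0.011) turned sign, and over the fits without 1 array they ran up to 0.43 for Efnb2 and down to -0.28 for Epha10. Of the alternatives for single members 444 kept their direction and side of the threshold, 49 lost a call and 2 turned sign. The causes were not tested. Centring is by construction a shift, of -0.37 for the tissue median of all genes. With 4 arrays a group, changes smaller than their interval half-width (0.17 to 0.56) do not reach an unadjusted p of 0.05. A call after adjustment over all genes needed more. Efnb3 in brain changed by 0.31, with an interval from 0.11 to 0.52, and was not called by limma (adjusted p = 0.43).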
